A study of Homo sapiens with 9 samples.

Results

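Expressed lincRNA genes were followed in MOLM13, an established line of acute myeloid leukemia (AML) that carries a rearranged KMT2A gene and an activating FLT3 duplication. A gene was included when its row was classed as lincRNA and its mean over all 9 libraries was at least 1 TPM (a level scaled for transcript length and library size), leaving out GAS5 and symbols that start with SNHG. The rule took 381 of 7114 lincRNA rows, of 57820 named genes in all, and 2013 lincRNA rows were above 0 in any library. It used levels, so the levels below are a description and were not tested. RNA-seq was available for cells with the guide RBM5-sg1 and Cas9 (RBM5 KO), cells with a lentiviral RBM5-P2A-Venus cDNA (RBM5 OE) and cells with a non-targeting sgRNA (CTRL), with 3 biological replicates in each group. RBM5 KO is a bulk edited population. RBM5 OE and CTRL differ in vector as well as in RBM5, since CTRL carries a guide and no Venus vector. Library totals ran between 25522952 and 27871988 estimated counts.

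RBM5, an RNA-binding protein of the spliceosome, checked the labels. It had 70.3, 74.0 and 79.1 CPM (a count scaled to library size with TMM factors) in RBM5 KO and 379.6, 414.9 and 414.3 CPM in RBM5 OE, against 122.4, 116.8 and 113.1 CPM in CTRL. The log2 fold change was -0.65 in RBM5 KO (SE 0.08, adjusted p = 0.00692) and 1.78 in RBM5 OE (SE 0.07, adjusted p = 4.11e-08) by edgeR. Vector and endogenous reads are counted together. Of the 10 myeloid markers, 9 were above 1 CPM in every library. Of the 4 epithelial and HEK293T markers, EPCAM and KRT19 were at 0 in all, while 1 was above 1 CPM in every library. The summed level of the myeloid markers was 1888 to 2219 CPM in RBM5 KO and 2231 to 2278 CPM in RBM5 OE, against 2144 to 2351 CPM in CTRL, and that of the epithelial and HEK293T list was 9.29 to 10.93 CPM in RBM5 KO and 5.92 to 6.88 CPM in RBM5 OE, against 8.27 to 9.86 CPM in CTRL. The part of these in the results was not tested, and in bulk RNA fewer cells of a type and less RNA per cell cannot be told apart. CTRL replicate 3 and RBM5 KO replicate 1 stood apart from the other libraries of their groups. Both libraries were the lowest of their group for 58 of 331 tested lincRNA genes (17.5%, against 20.8% of all genes tested) and the highest for 36 (10.9%, against 20.5%). The RBM5 KO calls below are therefore also given without these libraries. They were picked by their deviation in these same data, so leaving them out lowers the spread within groups by construction.

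Long intergenic noncoding RNAs are transcribed from their own promoters between protein-coding genes and are usually spliced and polyadenylated. Some build nuclear bodies, some act on nearby genes, and others are mainly precursors from which a microRNA is cut. Many are made in 1 cell lineage and at low levels. The class used here is an older one. By stable ID, 293 of the 381 genes were found in GENCODE 44 lifted to GRCh37, the build of the alignment. Of the 293 genes, 9 are now protein-coding genes. A protein-coding gene is overlapped by 93 genes, 37 on the same strand and 61 on the opposite strand, with some on both. Counting did not use strand, so these genes may share reads with coding genes, but overlap of exons was not examined. Whether such reads bear on the shares called below was not tested.

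MicroRNAs cut from MIR155HG, MIR503HG and RP6-99M1.2, hosts that were higher in RBM5 OE, are shown with the seed, bases 2 to 8, in capitals. The seed is the part by which a microRNA finds its targets. MicroRNAs of other hosts described below, such as MIR22HG, are not shown. The sequences are from RefSeq on GRCh38.p14, 5′ to 3′. Mature microRNAs were not measured in these libraries.
hsa-miR-155-5p (host MIR155HG): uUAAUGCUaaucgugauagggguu
hsa-miR-503-5p (host MIR503HG): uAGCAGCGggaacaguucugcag
hsa-miR-221-3p (host RP6-99M1.2): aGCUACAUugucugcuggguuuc
hsa-miR-222-3p (host RP6-99M1.2): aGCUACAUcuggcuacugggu
The last pair shares the seed GCUACAU, and the other seeds differ from it and from each other.

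Promoters are shown for LINC00996, the gene with the largest tested rise in RBM5 OE, and for MIR155HG and CYTOR (LINC00152 in the files), on the list of inflammation genes. Each runs over 300 bases of RefSeq on GRCh38.p14, from 250 before to 50 after the start. Capitals mark matches, on either strand, to TGANTCA (AP-1), TGATGCAA (C/EBP-ATF), CACGTG (E-box), or the ISRE or NF-kB motif.
LINC00996: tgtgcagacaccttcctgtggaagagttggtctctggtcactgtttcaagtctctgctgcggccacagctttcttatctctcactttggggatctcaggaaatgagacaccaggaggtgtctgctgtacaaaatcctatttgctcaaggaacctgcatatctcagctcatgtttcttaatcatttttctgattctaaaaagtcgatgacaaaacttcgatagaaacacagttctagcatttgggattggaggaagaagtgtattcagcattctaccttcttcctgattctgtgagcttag
MIR155HG: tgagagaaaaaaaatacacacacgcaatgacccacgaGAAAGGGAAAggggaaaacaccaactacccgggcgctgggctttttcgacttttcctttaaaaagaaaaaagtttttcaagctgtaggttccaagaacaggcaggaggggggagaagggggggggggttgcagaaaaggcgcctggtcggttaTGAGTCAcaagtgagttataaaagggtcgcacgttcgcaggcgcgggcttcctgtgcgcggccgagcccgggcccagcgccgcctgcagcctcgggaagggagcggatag
CYTOR: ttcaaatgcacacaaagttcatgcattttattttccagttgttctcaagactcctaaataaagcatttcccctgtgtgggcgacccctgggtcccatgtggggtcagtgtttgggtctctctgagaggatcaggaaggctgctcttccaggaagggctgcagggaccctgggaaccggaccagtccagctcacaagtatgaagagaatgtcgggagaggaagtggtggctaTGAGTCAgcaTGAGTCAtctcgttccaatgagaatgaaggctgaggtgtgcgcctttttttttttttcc
The LINC00996 window is chr7:150433404-150433703 on the plus strand and holds no match. The MIR155HG window, chr21:25561895-25562194 on the plus strand, holds an ISRE match and an AP-1 match. The CYTOR window, chr2:87455177-87455476 on the plus strand, holds 2 AP-1 matches. A promoter was found for 122 of the 381 genes. AP-1 was present in 8.2% of these against 7.71% of all 35116 promoters, ISRE in 5.74% against 3.57%, NF-kB in 6.56% against 5.91%, E-box in 9.02% against 7.26% and C/EBP-ATF in 0% against 0.866%. A match describes letters and is not a bound site.

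Most of the genes were expressed at a low level. The median of the mean TPM was 2.96, and 66 genes reached 10 TPM while 131 lay between 1 and 2 TPM. In 308 genes the mean was at least 1 TPM in every group, and the mean fell below 1 TPM for 38 genes in RBM5 KO, 15 in RBM5 OE and 41 in CTRL. Among these, 16 genes reached 1 TPM only in RBM5 OE and 5 only in RBM5 KO, so they had to differ between groups, and the 3 of them whose differences are described below (RP11-1055B8.4, RP11-459I19.1 and FAM225A, all from RBM5 OE) are given by their levels, with no test. Just inside the threshold were AC005307.3 (1.02 TPM), RP11-981G7.6 (1.02 TPM) and RP11-563N4.1 (1.00 TPM). Just outside were a row at 0.998 TPM, CTD-2267D19.6 (0.991 TPM) and RP11-72M17.1 (0.988 TPM). TPM of a short transcript can pass on few reads, and 12 genes had fewer than 30 counts over the 9 libraries, the lowest with 1. In 28 genes the counts were too low to be tested in any comparison.

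The gene with the highest mean was LINC00493 at 171 TPM, now annotated as SMIM26, which encodes a mitochondrial microprotein. It was followed by RP11-620J15.3 (GIHCG, 111 TPM), LINC00926 (97.1 TPM), RP11-304L19.5 (90.0 TPM, now named SNHG19, though its symbol in the files passes the rule) and NEAT1 (76.4 TPM). EPB41L4A-AS1 (66.3 TPM), CTC-503J8.6 (63.0 TPM), RP11-84C10.2 (59.7 TPM, named RNASE2CP), LINC00116 (59.3 TPM, now MTLN, which encodes mitoregulin) and RP11-932O9.9 (58.8 TPM) completed the 10 highest. RP11-932O9.9 lies inside GOLGA8H on the same strand, and its reads may be shared with that gene. RP11-620J15.3 lies inside XRCC6BP1 on the opposite strand, and as counting did not use strand it may share reads too.

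The summed level of the lincRNA genes was 2522.82, 2661.69 and 2804.63 TPM in RBM5 KO and 3539.6, 3422.98 and 3447.71 TPM in RBM5 OE, against 2852.83, 2747.0 and 2744.04 TPM in CTRL. Every RBM5 OE library lay above every library of the other groups, while RBM5 KO and CTRL overlapped. No test was made of a sum over genes chosen by level. The sum is a small part of all TPM, from 0.252% to 0.354%.

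**Figure D1:**
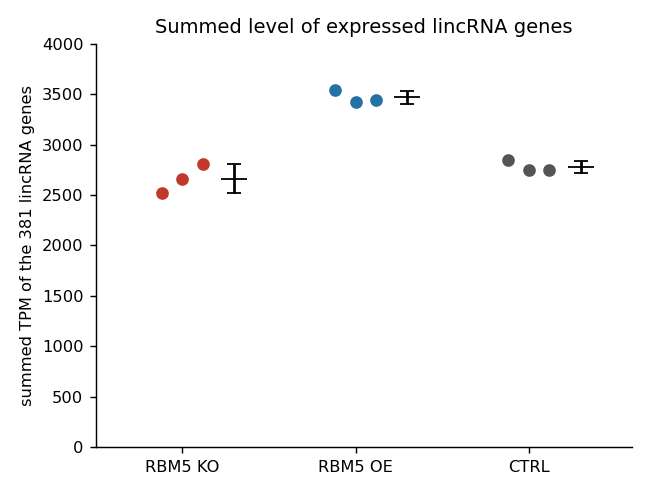
Summed TPM (vertical axis, from 0) of the 381 lincRNA genes in each library (points) of RBM5 KO, RBM5 OE and CTRL, with the mean and SD of each group beside the points (n = 3). The RBM5 OE libraries sit between 3422.98 and 3539.6 TPM, above all others.

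In RBM5 OE, lincRNA genes were more often above CTRL than below it, in a comparison where RBM5 and the vector cannot be told apart. Of 338 lincRNA genes tested in RBM5 OE against CTRL, 95 were higher (28.1%) and 17 were lower (5.03%) by edgeR's quasi-likelihood test at an adjusted p under 0.05. Over all 14370 genes tested, 19.8% were higher and 20.2% lower. The median log2 fold change was 0.28 over the lincRNA genes and 0.01 over all genes tested. Among antisense genes, another noncoding class, 20.1% were higher and 3.19% lower. With only the genes of at least 1 TPM in every group mean, 84 were higher and 15 lower of 288. The groups did not overlap for 161 lincRNA genes (47.6%), against 51.7% of all genes tested.

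**Figure D2:**
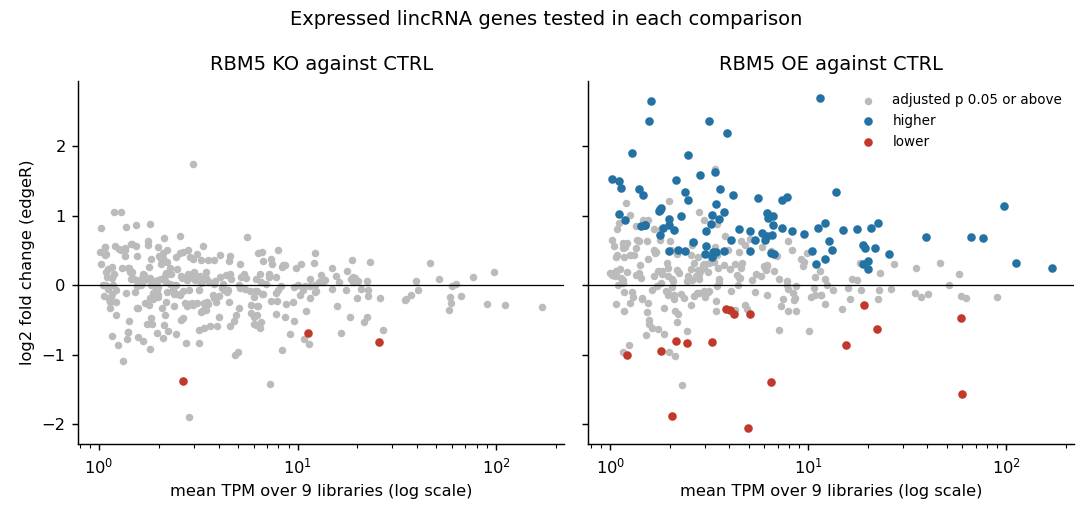
Log2 fold change of the tested lincRNA genes (vertical axis) against mean TPM over 9 libraries (horizontal, log scale) for RBM5 KO against CTRL, left, and RBM5 OE against CTRL, right. Colors mark genes higher (blue) or lower (red) at an adjusted p under 0.05: 0 and 3 on the left, 95 and 17 on the right.

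By level, 26 genes rose and 5 fell of 65 tested at 10 TPM or more, with a median log2 fold change of 0.17. Between 2 and 10 TPM, 48 rose and 10 fell of 170 (median 0.29), and between 1 and 2 TPM, 21 rose and 2 fell of 103 (median 0.40). The share called was thus largest where the median was smallest. No share over all genes is given by level, so nothing particular to a level is read from these counts. Among the 10 highest genes, LINC00493 had 38.3, 43.9 and 43.4 CPM in RBM5 OE, against 33.7, 36.0 and 36.9 CPM in CTRL (0.24, adjusted p = 0.0321, edgeR). RP11-620J15.3 had 36.4, 37.5 and 35.1 CPM in RBM5 OE, against 31.2, 30.8 and 25.4 CPM in CTRL (0.32, adjusted p = 0.0138). For LINC00493 the adjusted p was 0.123 when CTRL replicate 1 was left out, 0.054 when CTRL replicate 2 was left out, 0.146 when RBM5 OE replicate 2 was left out and 0.124 when RBM5 OE replicate 3 was left out. For RP11-620J15.3 it was 0.0512 when RBM5 OE replicate 1 was left out and 0.0636 when RBM5 OE replicate 2 was left out. RP11-304L19.5, CTC-503J8.6 and RP11-932O9.9 did not pass the test.

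LINC00996, on chromosome 7 of GRCh37 from 150130742 to 150145229, showed the largest rise in RBM5 OE. It had 34.4, 31.8 and 33.6 CPM in RBM5 OE, against 4.91, 4.33 and 6.19 CPM in CTRL, and the groups were far apart. The log2 fold change was 2.7 (SE 0.12, adjusted p = 1.62e-07, edgeR). Its nearest coding start is that of GIMAP8, a GTPase of lymphoid and myeloid cells, 16976 bases away, which rose by 1.51 on the log2 scale (adjusted p = 0.00138, edgeR).

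RP11-37B2.1 (RIPK2-DT) starts 6 bases from RIPK2, a kinase of the NOD-like receptor pathway, on the opposite strand of chromosome 8. Its level was 4.94, 5.72 and 6.84 CPM in RBM5 OE, against 1.26, 0.97 and 1.18 CPM in CTRL. The log2 fold change was 2.36 (SE 0.22, adjusted p = 1.43e-05, edgeR), and RIPK2 rose by 0.80 (adjusted p = 9.96e-06). The annotated genes overlap by 7 bases and counting did not use strand.

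RP11-1055B8.4, of no described role, had 4.53, 3.53 and 4.35 CPM in RBM5 OE, against 0.82, 0.90 and 0.68 CPM in CTRL, and it met the level rule only through RBM5 OE. Its nearest coding start, SLC38A10, differed by 0.05 on the log2 scale (adjusted p = 0.613). RP1-86C11.7 had 2.27, 2.16 and 2.0 CPM in RBM5 OE, against 0.75, 0.43 and 0.23 CPM in CTRL, with a log2 fold change of 2.19 (adjusted p = 0.000851, edgeR). It lies in the histone cluster of chromosome 6, from 27090436 to 27091000, and HIST1H2BJ, a histone gene whose start is 9574 bases away, rose by 2.25 (adjusted p = 9.55e-05). CTD-2369P2.2, with no position in the annotation used, rose by 1.63 (adjusted p = 5.91e-05), with 8.55, 8.06 and 9.53 CPM in RBM5 OE, against 3.61, 2.5 and 2.39 CPM in CTRL.

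RP11-459I19.1 was low, with 0.51, 0.92 and 0.57 CPM in RBM5 OE, against 0.04, 0.19 and 0.08 CPM in CTRL. These rest on 55 counts in RBM5 OE and 8 in CTRL, and RBM5 OE alone put the gene over 1 TPM. RBM5 KO had 0 counts, and against a floor of 3 counts over that group the RBM5 OE level was at least 18.8-fold higher. RP11-262H14.4 (1.90, adjusted p = 0.000206) and RP1-234P15.4 (TMEM30A-DT, 1.59, adjusted p = 0.0017) also rose on the log2 scale by edgeR. FAM225A had 8.45, 5.83 and 8.88 CPM in RBM5 OE, against 1.61, 2.96 and 3.45 CPM in CTRL. FAM225A and RP11-262H14.4 belong to families of near-identical copies, so how their reads were divided is uncertain. AC079767.4 (LINC01857) rose by 1.87 with an adjusted p of 0.0382, which was 0.204 when RBM5 OE replicate 3 was left out, 0.102 when CTRL replicate 2 was left out, 0.0629 when CTRL replicate 3 was left out and 0.0593 when RBM5 OE replicate 1 was left out.

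The falls in RBM5 OE were led, among genes of high level, by RP11-84C10.2 (RNASE2CP), in the cluster of eosinophil-type ribonucleases on chromosome 14, from 21387449 to 21388462. It had 5.19, 6.57 and 6.01 CPM in RBM5 OE, against 18.8, 20.2 and 13.8 CPM in CTRL, and the groups did not overlap. The log2 fold change was -1.57 (SE 0.16, adjusted p = 2.49e-05, edgeR). RNASE3, which encodes a granule ribonuclease and starts 27905 bases away, fell by 0.45 (adjusted p = 0.00311). Reads shared with related ribonuclease genes cannot be told apart from the table.

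RP11-339B21.15 fell by 2.05 on the log2 scale (SE 0.45, adjusted p = 0.00362, edgeR), with 0.15, 0.18 and 0.15 CPM in RBM5 OE, against 0.71, 0.70 and 0.61 CPM in CTRL. RP5-1052I5.1 (LINC01140) fell by 1.88 (SE 0.38, adjusted p = 0.00237), with 0.84, 0.46 and 0.60 CPM in RBM5 OE, against 1.89, 1.60 and 3.57 CPM in CTRL. CTRL replicate 3, a library that stood apart, was the highest of these. RP5-1052I5.1 lies inside the coding gene RP5-1052I5.2 on the same strand, over 39434 bases, and may share its reads. RP5-1052I5.2 itself averaged 0 CPM in each group. LINC00116 (MTLN) fell by 0.47 (SE 0.11, adjusted p = 0.00534), with 8.45, 8.55 and 8.43 CPM in RBM5 OE, against 11.8, 12.4 and 11.2 CPM in CTRL. LINC01963 (-0.83, adjusted p = 0.00156) and CTD-2196E14.9 (-0.82, adjusted p = 0.00226) were also lower by edgeR. CTD-2196E14.9 lies inside DCTN5 on the same strand and may share its reads.

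**Figure D3:**
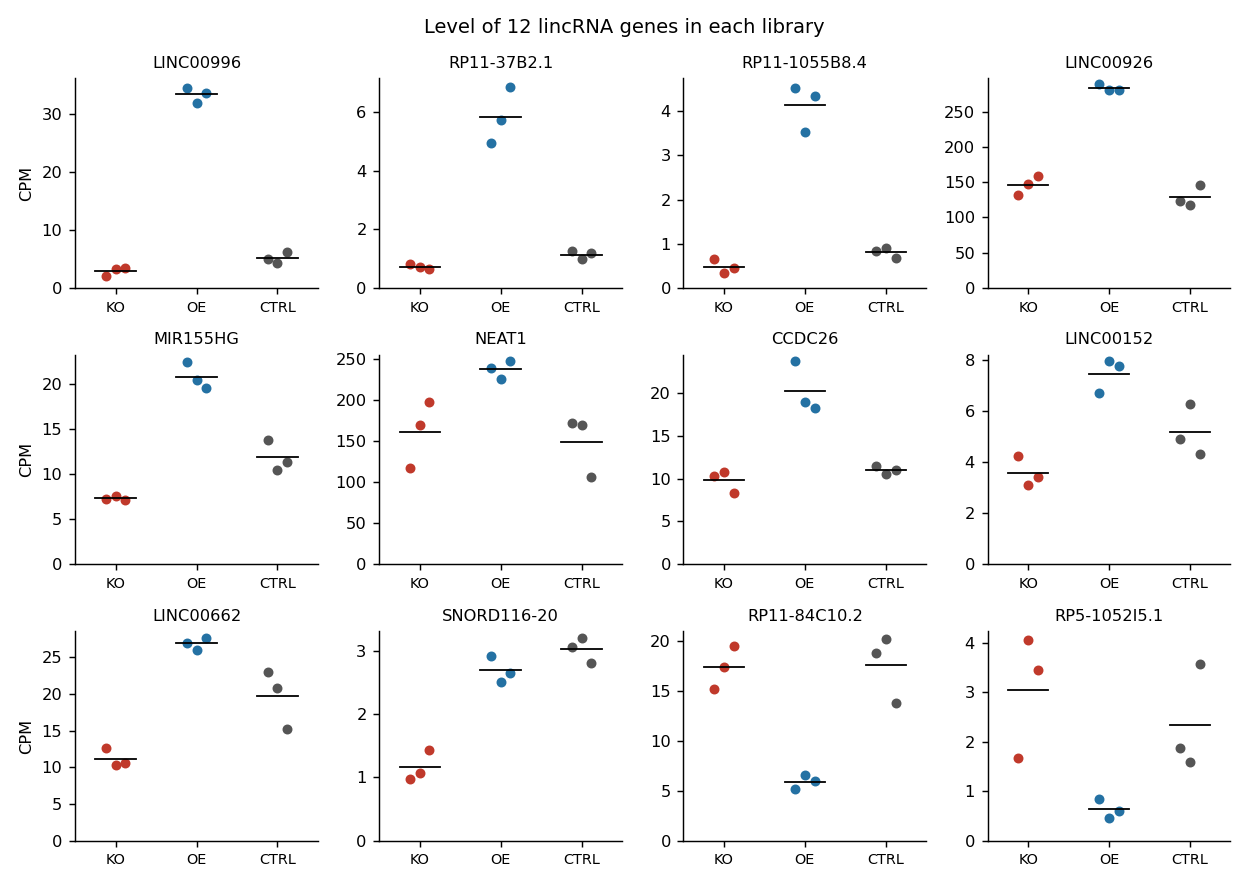
CPM (vertical axes, from 0) of 12 lincRNA genes in each library (points) with group means (lines), for RBM5 KO, RBM5 OE and CTRL from left to right. LINC00996 ran from 31.8 to 34.4 CPM in RBM5 OE and stayed under 6.2 CPM in all other libraries.

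Of the list of nuclear bodies and X inactivation, 5 of 11 symbols were among the genes, and 3 rose and 0 fell in RBM5 OE. The counts for this and the following lists stand beside 19.8% higher and 20.2% lower over all genes tested, and 28.1% and 5.03% over the lincRNA genes, and with so few members nothing particular to a list is read from them. NEAT1, the scaffold of paraspeckles, had 239.5, 225.9 and 248.0 CPM in RBM5 OE, against 171.6, 169.2 and 106.2 CPM in CTRL, where replicate 3 was far below the others (log2 fold change 0.68, SE 0.14, adjusted p = 0.00308, edgeR). JPX, known in mouse as an activator of X inactivation, had 18.7, 16.2 and 17.0 CPM in RBM5 OE, against 12.0, 12.0 and 11.9 CPM in CTRL (0.54, SE 0.10, adjusted p = 0.00131). The gene body of JPX lies within that of FTX on the other strand, over 126227 bases. Counting did not use strand, so reads may be shared, but overlap of their exons was not examined. MALAT1, of nuclear speckles, rose by 0.23 (SE 0.07, adjusted p = 0.0194), but its adjusted p was 0.0538 when CTRL replicate 1 was left out, 0.0551 when CTRL replicate 2 was left out, 0.0925 when RBM5 OE replicate 1 was left out and 0.0859 when RBM5 OE replicate 2 was left out. LINC00657 (NORAD), which binds Pumilio proteins, was -0.002 (adjusted p = 0.99), and FTX was 0.64 (adjusted p = 0.184).

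Proteins of paraspeckles, a list of 13 genes, had 2 members higher and 3 lower in RBM5 OE, near the shares over all genes tested (19.8% and 20.2%). The 3 with the smallest p are given. SFPQ averaged 523 CPM in RBM5 OE and 364 CPM in CTRL (0.53, adjusted p = 7.54e-05, edgeR), and PSPC1 averaged 160 and 114 CPM in RBM5 OE and CTRL (0.49, adjusted p = 0.000309). TARDBP, an RNA-binding protein, averaged 124 CPM in RBM5 OE and 181 CPM in CTRL (-0.54, adjusted p = 0.000285).

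Of 21 symbols on the list of microRNA hosts, 4 were among the genes, and 2 rose and 0 fell in RBM5 OE. MIR155HG, the host of miR-155, an immune microRNA, had 22.5, 20.4 and 19.6 CPM in RBM5 OE, against 13.8, 10.5 and 11.3 CPM in CTRL (0.82, SE 0.12, adjusted p = 0.000257, edgeR). MIR503HG, the host of miR-503, had 2.08, 2.05 and 1.59 CPM in RBM5 OE, against 0.67, 1.05 and 0.83 CPM in CTRL (1.16, SE 0.29, adjusted p = 0.00839). In both hosts the RBM5 OE libraries lay above all CTRL libraries. MIR22HG (-0.17, adjusted p = 0.69) and MIR4435-1HG (-0.05, adjusted p = 0.787) did not pass the test. RP6-99M1.2, the gene that holds miR-221 and miR-222 on chromosome X, is named here after its values were seen. It had 14.7, 13.2 and 12.3 CPM in RBM5 OE, against 11.4, 9.75 and 10.0 CPM in CTRL (0.37, SE 0.12, adjusted p = 0.0236, edgeR). Its adjusted p was 0.11 when RBM5 OE replicate 1 was left out, 0.0704 when CTRL replicate 2 was left out and 0.0638 when RBM5 OE replicate 2 was left out. Of 9 tested genes of microRNA processing, 0 rose and 3 fell in RBM5 OE, against 19.8% and 20.2% of all genes tested, with XPO5, the exporter of microRNA precursors, at 119 CPM in RBM5 OE and 188 CPM in CTRL (-0.65, adjusted p = 2.37e-05).

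The 2 members on the leukemia list both rose in RBM5 OE. LINC00926, on chromosome 15 from 57592563 to 57599967, had 288.6, 280.8 and 280.9 CPM in RBM5 OE, against 122.6, 117.3 and 146.1 CPM in CTRL (1.14, SE 0.08, adjusted p = 3.26e-06, edgeR). CCDC26, a lincRNA gene of a chromosome 8 region altered in AML, had 23.7, 18.9 and 18.2 CPM in RBM5 OE, against 11.4, 10.5 and 11.0 CPM in CTRL (0.89, SE 0.12, adjusted p = 0.000153).

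Of 20 symbols on the inflammation and interferon list, 5 were among the genes, and 4 rose and 0 fell in RBM5 OE, against 19.8% and 20.2% of all genes tested. These were LINC00996 and MIR155HG, above, LINC00528 and LINC00152. LINC00528 had 3.40, 4.52 and 4.80 CPM in RBM5 OE, against 2.0, 2.34 and 2.66 CPM in CTRL (0.87, SE 0.21, adjusted p = 0.00707, edgeR). LINC00152 (CYTOR) had 6.69, 7.95 and 7.75 CPM in RBM5 OE, against 4.91, 6.28 and 4.33 CPM in CTRL (0.54, SE 0.17, adjusted p = 0.0242), and it has a near-identical copy in MIR4435-1HG. Its adjusted p was 0.0819 when CTRL replicate 1 was left out, 0.0917 when RBM5 OE replicate 2 was left out and 0.08 when RBM5 OE replicate 3 was left out.

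Of 6 members on the list of p53, DNA damage and growth, 2 rose and 0 fell in RBM5 OE, against 28.1% and 5.03% of the lincRNA genes. EPB41L4A-AS1, which also holds a small nucleolar RNA, had 51.0, 49.7 and 50.7 CPM in RBM5 OE, against 33.1, 31.9 and 28.8 CPM in CTRL (0.70, SE 0.08, adjusted p = 4.88e-05, edgeR). It overlaps EPB41L4A on the other strand. The second was LINC00152. TP53TG1, a p53 target, was -0.38 (adjusted p = 0.452) and LINC01021 (PURPL), another p53 target, was 0.09 (adjusted p = 0.721). The sign for TP53TG1 depended on the fit, from -0.70 to 0.84 over the alternatives, with no call in any. Its TPM was 3.46, 12.1 and 16.08 in RBM5 OE, against 7.11, 3.2 and 5.02 in CTRL, so no direction is read.

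**Figure D4:**
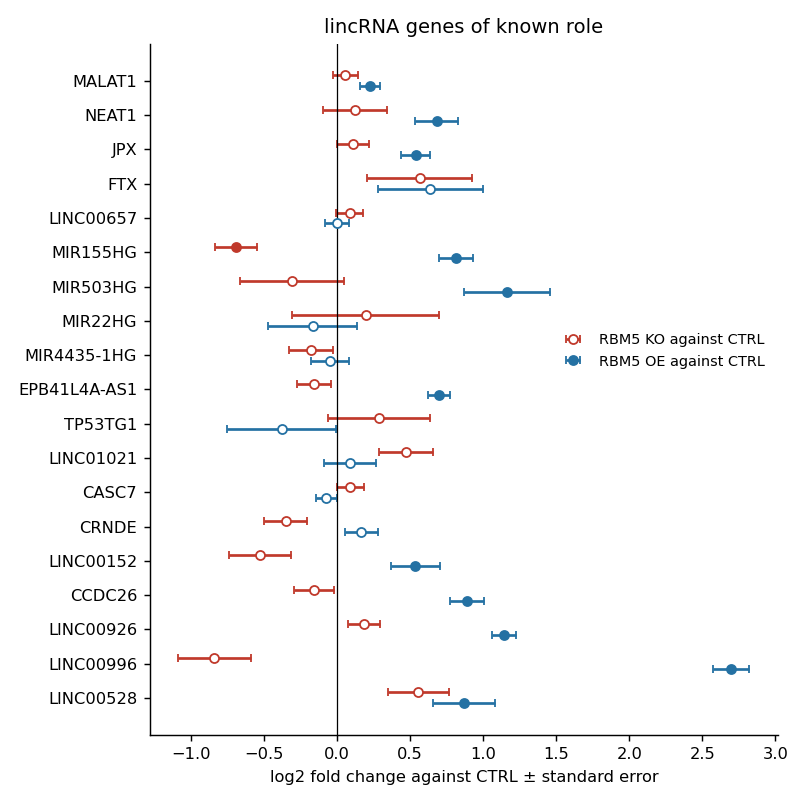
Log2 fold change ± standard error (horizontal axis) of 19 lincRNA genes on the lists of known roles, for RBM5 KO against CTRL (red, upper of each pair) and RBM5 OE against CTRL (blue, lower), with filled points at an adjusted p under 0.05. MIR155HG is filled in both, at -0.69 and 0.82.

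Nuclear RNA decay shortens the life of many noncoding RNAs. Of 19 genes of the nuclear exosome and its adaptors, 3 were higher and 9 lower in RBM5 OE, against 19.8% and 20.2% of all genes tested. The 3 with the smallest p, all lower, were EXOSC4, EXOSC7 and EXOSC2. EXOSC4, a core subunit, averaged 45.3 CPM in RBM5 OE and 114 CPM in CTRL (-1.32, adjusted p = 1.33e-06, edgeR), while EXOSC7 (-0.74) and EXOSC2 (-0.69) were also lower. Other genes of the list went the other way. EXOSC8, also an exosome subunit, averaged 88.0 CPM in RBM5 OE, 63.0 CPM in CTRL and 44.6 CPM in RBM5 KO. Against RBM5 KO, EXOSC8 (0.98, adjusted p = 5.87e-05, edgeR) and ZCCHC8 (0.57, adjusted p = 0.000201) were higher in RBM5 OE. In that comparison 2 genes of the list were higher and 9 lower, against 19.5% and 20.6% of all genes tested. Whether these levels bear on the lincRNA genes was not tested.

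Coding genes that start within 2000 bases of a named lincRNA gene, on the opposite strand, were compared with it in RBM5 OE for 10 pairs. RP11-259N19.1 (HK2-DT) was -0.94 (adjusted p = 0.0267), which was 0.0704 when CTRL replicate 3 was left out, 0.0989 when RBM5 OE replicate 1 was left out and 0.0946 when RBM5 OE replicate 2 was left out. Its partner HK2, a hexokinase, fell by 0.64 (adjusted p = 0.00012, edgeR). RP4-758J18.13 (MRPL20-DT) was -0.80 (adjusted p = 0.0182), which was 0.0706 when RBM5 OE replicate 1 was left out and 0.0514 when RBM5 OE replicate 2 was left out, and MRPL20, a mitochondrial ribosomal protein, fell by 0.60 (adjusted p = 9.33e-05). With RP11-37B2.1 and RIPK2, above, both genes passed the test and moved the same way in 3 of the 10 pairs. In 1 pair only the lincRNA gene passed, in 4 only the coding gene, and in 2 neither. The lincRNA genes that passed, RP11-37B2.1, RP11-259N19.1, RP4-758J18.13 and RP1-234P15.4, were named because they were called in this comparison. Their calls were thus fixed by selection, so the counts describe these 10 pairs and nothing about lincRNA genes and their neighbours in general is read from them. RP1-234P15.4 had 2.27, 1.70 and 2.91 CPM in RBM5 OE, against 0.67, 0.90 and 0.72 CPM in CTRL, while TMEM30A, a flippase subunit whose start is 44 bases away, was -0.03 (adjusted p = 0.798). BARX1, a homeobox gene, fell by 1.31 (adjusted p = 7.94e-06), while RP11-231K24.2 (BARX1-DT) was -0.29 (adjusted p = 0.421). CROT, a peroxisomal acyltransferase that starts 104 bases from TP53TG1, fell by 1.18 (adjusted p = 0.0084), and IRX5, a homeobox gene 1676 bases from CRNDE, rose by 0.53 (adjusted p = 0.00673), while CRNDE was 0.17 (adjusted p = 0.26). No test was made of the pairs together.

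**Figure D5:**
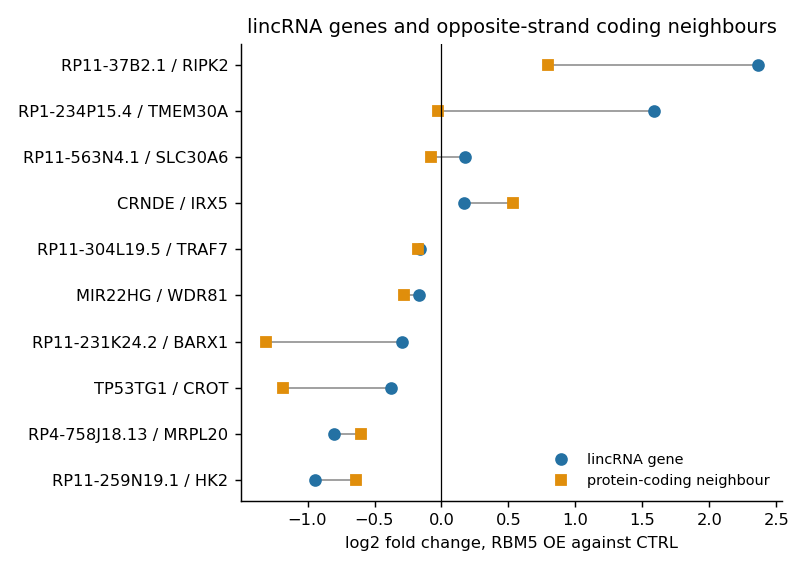
Log2 fold change in RBM5 OE against CTRL (horizontal axis) of 10 named lincRNA genes (circles) and the coding genes that start within 2000 bases on the opposite strand (squares), joined by a line for each pair. RP11-37B2.1 and RIPK2 are at 2.36 and 0.80, and RP1-234P15.4 and TMEM30A at 1.59 and -0.03.

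Few genes passed the test in RBM5 KO, and the lincRNA genes were near the shares over all genes. Of 331 lincRNA genes tested in RBM5 KO against CTRL, 0 were higher and 3 lower (0.906%) by edgeR at an adjusted p under 0.05. Over all 14218 genes tested, 0.837% were higher and 1.67% lower. At an unadjusted p under 0.05 there were 53 of the 331 lincRNA genes, beside 2382 of all 14218 genes tested. DESeq2 called 3 lincRNA genes higher and 6 lower. The groups did not overlap for 75 lincRNA genes (22.7%), against 22.9% of all genes tested. The median log2 fold change was -0.01, and 0.01 over all genes tested. Without the libraries that stood apart 10 lincRNA genes were higher and 11 lower, from 2 libraries in each group. For this fit and for DESeq2 no share over all genes is given, so nothing particular to lincRNA genes is read from their counts.

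SNORD116-20, an entry now annotated as a noncoding gene in the imprinted Prader-Willi region on chromosome 15, from 25332808 to 25334043, lies wholly inside SNHG14 on the same strand and may share its reads. It had 0.98, 1.07 and 1.43 CPM in RBM5 KO, against 3.06, 3.20 and 2.81 CPM in CTRL. The log2 fold change was -1.37 (SE 0.25, adjusted p = 0.027, edgeR). LINC00662, on chromosome 19 from 28171980 to 28284913, had 12.6, 10.4 and 10.6 CPM in RBM5 KO, against 23.0, 20.8 and 15.3 CPM in CTRL (-0.81, SE 0.17, adjusted p = 0.0423). MIR155HG had 7.22, 7.59 and 7.18 CPM in RBM5 KO, against 13.8, 10.5 and 11.3 CPM in CTRL (-0.69, SE 0.14, adjusted p = 0.0446). In all 3 genes every RBM5 KO library lay below every CTRL library. MIR155HG was the 1 gene of the 5 role lists that passed the test in RBM5 KO.

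None of the 3 calls held in every fit with 1 library left out. For LINC00662 the adjusted p was 0.194 when CTRL replicate 1 was left out, 0.173 when CTRL replicate 2 was left out, 0.151 when RBM5 KO replicate 2 was left out and 0.154 when RBM5 KO replicate 3 was left out. For MIR155HG it was 0.197 when CTRL replicate 1 was left out, 0.0924 when CTRL replicate 2 was left out, 0.078 when CTRL replicate 3 was left out, 0.129 when RBM5 KO replicate 2 was left out and 0.157 when RBM5 KO replicate 3 was left out. For SNORD116-20 it was 0.137 when CTRL replicate 1 was left out, 0.129 when CTRL replicate 2 was left out, 0.0538 when CTRL replicate 3 was left out, 0.112 when RBM5 KO replicate 2 was left out and 0.0603 when RBM5 KO replicate 3 was left out. Without both libraries that stood apart, the adjusted p was 1.67e-06 for LINC00662 (log2 fold change -1.06), 0.00286 for MIR155HG (-0.72) and 0.0049 for SNORD116-20 (-1.32). That fit has 2 libraries in each group, and the libraries left out were picked because they deviated. A smaller spread within groups was therefore built in, and these values add no support to the calls.

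CTC-459F4.1 lies inside LINC00662 on the same strand, so the entries may share reads. It had 2.0, 2.65 and 2.38 CPM in RBM5 KO and 10.16, 10.4 and 8.24 CPM in RBM5 OE, against 5.54, 3.66 and 4.14 CPM in CTRL. It was -0.92 in RBM5 KO (adjusted p = 0.0794) and rose by 1.12 in RBM5 OE (adjusted p = 0.000474, edgeR). LINC00662 had 27.0, 26.0 and 27.7 CPM in RBM5 OE (0.45, adjusted p = 0.015, edgeR), with an adjusted p of 0.0521 when RBM5 OE replicate 1 was left out and 0.0508 when RBM5 OE replicate 3 was left out. LINC00996 had 2.0, 3.17 and 3.41 CPM in RBM5 KO, all below CTRL, but was not called (-0.84, SE 0.25, adjusted p = 0.126). Without both libraries that stood apart, the 21 genes then called included CRNDE (-0.53, adjusted p = 0.00946), LINC00152 (-0.78, 0.016) and LINC00926 (0.35, 0.0108). In the main edgeR fit of all 6 libraries none of these was called, with adjusted p of 0.274, 0.258 and 0.436. The smaller spread was built into the reduced fit, so no change in RBM5 KO is read from it. The RBM5 KO and RBM5 OE contrasts use the same CTRL libraries, so their values are given side by side and were not compared.

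RBM5 OE was also compared with RBM5 KO directly, with CTRL libraries adding to the estimate of spread. Of 353 lincRNA genes tested, 103 were higher (29.2%) and 20 lower (5.67%), against 19.5% and 20.6% of all 14754 genes tested. These include genes that met the level rule only through 1 group. With only the genes of at least 1 TPM in every group mean, 92 were higher and 16 lower of 297. The groups did not overlap for 181 lincRNA genes (51.3%), against 52.6% of all genes tested. LINC00996 had the largest rise that can be given as a fold, 3.54 on the log2 scale (SE 0.18, adjusted p = 6.56e-07, edgeR). Among genes that did not owe their place to RBM5 OE alone, it was followed by RP11-37B2.1 (3.01) and RP4-536B24.4 (2.94, adjusted p = 0.00103). RP4-536B24.4 had 1.46, 0.92 and 1.66 CPM in RBM5 OE, against 0.26, 0.11 and 0.15 CPM in RBM5 KO. MIR155HG (1.5, adjusted p = 5.29e-06) and LINC00662 (1.26, adjusted p = 5.24e-05) were also higher.

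The lower genes in this comparison included RP5-1052I5.1 (-2.26, adjusted p = 0.00131), RP11-84C10.2 (-1.55, adjusted p = 3.16e-05) and CTB-61M7.2 (-1.50, adjusted p = 0.00687, edgeR). CTB-61M7.2 lies inside FCAR, the receptor for IgA, on the same strand, and had 0.95, 0.92 and 0.57 CPM in RBM5 OE, against 1.60, 2.73 and 2.57 CPM in RBM5 KO. LINC00599 (MIR124-1HG) had 2.30, 1.91 and 2.04 CPM in RBM5 OE, against 4.67, 5.71 and 4.58 CPM in RBM5 KO (-1.26, adjusted p = 0.000286). JPX was 0.43 higher by counts (SE 0.10, adjusted p = 0.00437), yet its TPM was 21.4, 18.6 and 26.5 in RBM5 OE, against 23.6, 21.5 and 20.6 in RBM5 KO, and the groups overlapped. TPM uses an effective transcript length that RSEM estimates in each library.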

How the data were processed

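RNA was sequenced in 9 MOLM13 samples in 3 groups. Per the submitters' processing notes, the authors used Trim Galore for trimming, STAR 2.7.1a for alignment (GRCh37), GATK 4.1.2.0 to mark duplicates and RSEM, without strand, to count genes. The expected counts deposited by the authors are RSEM's estimated counts per gene, unscaled. The TPM deposited by the authors are scaled by length and library. Spike-in entries held 0 counts and were left out.

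Counts were rounded and tested in R 4.3.3 with edgeR 4.0.16 (filterByExpr, TMM, quasi-likelihood test), and p-values were adjusted by Benjamini-Hochberg across every gene tested. SE is the log2 fold change over the root of the F statistic. Each group was compared with CTRL in its own 6 libraries, and RBM5 OE with RBM5 KO in all 9. Alternatives used DESeq2 1.42.0 and limma 3.58.1. Fits were tested on simulated data.

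The members, lists and tests were chosen with earlier results of these data known. The text names the 10 members of highest mean TPM, up to 10 rises and 10 falls per comparison among called genes whose groups did not overlap, members of the role lists, those at the threshold, and 3 genes per background list at most. Replicates were labelled biological. Figures were drawn with matplotlib 3.10.9.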

Additional observations from a re-analysis of the deposited data

How the results depend on the processing

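In RBM5 KO against CTRL the main count of 3 lincRNA genes called was 9 with DESeq2, 8 with no filter on low counts, 13 with all 9 libraries in 1 fit, 0 with limma on log2(TPM + 0.1), 21 without both libraries that stood apart and 1 at an absolute log2 fold change over 1. Leaving out 1 library gave 0 to 7. At an absolute log2 fold change over 1, RBM5 OE against CTRL had 37, with 32 higher and 5 lower of 338 tested. Over all 14370 genes tested there, 602 were higher and 244 lower. RBM5 OE against RBM5 KO had 57, with 47 higher and 10 lower of 353 tested. Over all 14754 genes tested there, 843 were higher and 453 lower. Leaving out 1 library gave 81 to 118 and 97 to 125 in these comparisons, against 112 and 123. Without the 3 genes of highest mean TPM, the mean summed TPM was 2362.35 in RBM5 KO, 2969.4 in RBM5 OE and 2443.84 in CTRL, and with only genes of at least 1 TPM in every group mean it was 3342.97 in RBM5 OE and 2705.52 in CTRL.

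The replicate numbers did not pair the libraries: deviations of same-numbered libraries correlated between -0.2423 and 0.0989. The largest correlation, 0.3552, was between RBM5 KO replicate 1 and CTRL replicate 3, the libraries that stood apart. Why these deviated alike was not tested. With the replicate number as a block, the counts called were 0, 101 and 113 in RBM5 KO against CTRL, RBM5 OE against CTRL and RBM5 OE against RBM5 KO.

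By limma on TPM, U3 (now PCAT18), named after its values were seen, turned from 0.65 in RBM5 OE against CTRL to -0.06933 with a pseudocount of 1 and -0.03229 with 0.1. CTRL replicate 2 had 19.55 TPM against 3.11 and 4.7 in the other CTRL libraries. JPX in RBM5 OE against RBM5 KO turned from 0.43 to -4.452e-05 with a pseudocount of 0.1. The causes were not tested. Of 2622 values of named genes under alternatives, 2457 kept their call and, where called, their direction, 111 lost the call and 51 gained one. Some entries, such as RP11-131J3.1 and RP11-483I13.2, had identical values in every library. Genes under about 1 CPM rest on few counts, where a difference may not be detectable.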
